A study of Mus musculus with 16 samples.

Results

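Solute carrier genes near binding sites of BMAL1 were taken from the authors' merged table of BMAL1 peaks in mouse liver. An interval of that table was a member when the name of its nearest gene began with Slc or Slco and a digit, at any distance, leaving out Slc2a2 and names ending in os. The rule found 119 of 7043 intervals (1.69%), nearest to 89 genes. The name rule also takes in Slc9a3r1, which codes for a scaffold protein and not a carrier, and the pseudogene Slc25a5-ps, with 1 interval each.

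ChIP-seq (immunoprecipitation of chromatin followed by sequencing) was done on liver from C57bl6 mice aged 8 to 16 weeks, housed in 12 h light and 12 h dark. All groups ate a diet with 42% of calories from fat from the start of the paradigm. The 8 BMAL1 libraries were male or female, under the control or the misaligned protocol, at ZT0 or ZT12 (hours after lights on), with 1 library per group, each pooled from 3 to 4 mice. The misalignment schedule is not given in the labels, and the 8 IgG libraries were not used here. With 1 library per group, no difference at a single site could be set against replicate error. ChIP of whole liver gives no expression, so the tissue could not be checked against its markers. As a check of the assay, the clock genes Per1, Nr1d1 and Dbp had a peak in all 8 libraries.

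Solute carriers are membrane proteins that move sugars, amino acids, metal ions, nucleotides, organic ions and metabolites across the plasma membrane and the membranes of organelles. Those of hepatocytes take up nutrients and drugs from the blood, return metabolites to it, and link mitochondria to the cytosol. BMAL1 pairs with CLOCK and binds the E-box, CACGTG, a palindrome that reads the same on both strands.

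The promoters that carried both a BMAL1 interval and an E-box are shown first, since the letters can be set beside the position of the peaks. RefSeq promoter windows (GRCm38.p6, 250 bases before to 50 after each RefSeq start) were on hand for 71 of the 89 genes. In 4 promoters the bases just upstream of the start are given 5′ to 3′ on the gene's strand, with each CACGTG in capitals. They are those of Slc35a5 (chr16:45158674-45158828, minus strand), Slc20a1 (chr2:129198533-129198772, plus strand), Slc16a1 (chr3:104638424-104638663, plus strand) and Slc25a33 (chr4:149774268-149774467, minus strand). The Slc35a5 stretch is the 155 bases between its start and that of Atg3, an autophagy gene on the other strand.
Slc35a5: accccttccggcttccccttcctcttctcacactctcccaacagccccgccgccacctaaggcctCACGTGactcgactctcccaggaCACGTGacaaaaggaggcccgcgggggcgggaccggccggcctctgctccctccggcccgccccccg
Slc20a1: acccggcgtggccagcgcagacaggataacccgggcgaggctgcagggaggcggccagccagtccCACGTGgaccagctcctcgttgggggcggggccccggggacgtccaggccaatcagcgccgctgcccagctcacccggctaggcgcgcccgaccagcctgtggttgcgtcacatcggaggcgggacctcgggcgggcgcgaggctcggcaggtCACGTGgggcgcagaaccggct
Slc16a1: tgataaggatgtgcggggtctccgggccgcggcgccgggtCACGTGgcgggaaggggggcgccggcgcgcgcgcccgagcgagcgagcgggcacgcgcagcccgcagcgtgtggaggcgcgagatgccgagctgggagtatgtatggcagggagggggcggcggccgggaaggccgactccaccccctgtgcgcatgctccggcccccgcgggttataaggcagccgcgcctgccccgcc
Slc25a33: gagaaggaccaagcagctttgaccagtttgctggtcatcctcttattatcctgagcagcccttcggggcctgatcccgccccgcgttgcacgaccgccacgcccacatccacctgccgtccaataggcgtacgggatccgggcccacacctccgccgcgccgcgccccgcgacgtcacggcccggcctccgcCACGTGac

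In 5 more promoters 1 E-box is shown with 10 bases on each side. Slc36a1 has 2, at -31 and -3 bases from its start, and the one at -31 is shown. These are Slc25a1 (chr16:17928443-17928468, minus strand), Slc33a1 (chr3:63964843-63964868, minus strand), Slc25a13 (chr6:6217283-6217308, minus strand), Slc36a1 (chr11:55204299-55204324, plus strand) and Slc12a7 (chr13:73763649-73763674, plus strand).
Slc25a1: gctccagacgCACGTGtctctaaact
Slc33a1: aacccgcgctCACGTGgcgacgaggg
Slc25a13: cagtctgagtCACGTGtcctggcccc
Slc36a1: aatggagcggCACGTGacctgggcta
Slc12a7: caggtgaggtCACGTGgcgggcaagg

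Most of these genes have known roles in exchange between compartments. Slc16a1 carries lactate and pyruvate across the plasma membrane, Slc25a1 exports citrate from mitochondria, Slc25a13 exchanges aspartate and glutamate there, and Slc25a33 carries pyrimidine nucleotides into them. Slc33a1 brings acetyl-CoA into the endoplasmic reticulum, Slc20a1 takes up phosphate, Slc36a1 moves amino acids with protons, and Slc12a7 moves potassium with chloride. Slc35a5 belongs to the nucleotide sugar transporter family of the Golgi. Slc25a33, Slc33a1, Slc36a1 and Slc12a7 were chosen for display after their sequences were seen, because their windows hold the motif. Of the promoters shown, that of Slc35a5 was called in 5 libraries and that of Slc20a1 in 3. Each of the others was called in 1 library alone, Slc36a1 in male misaligned ZT0 and the rest in male misaligned ZT12. Their -log10 q from the caller ran from 2.19 (Slc36a1, rank 1651 of 1864) and 3.13 (Slc33a1, rank 4260 of 5542) to 14.9 (Slc25a33, rank 991 of 5542).

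An E-box stood in 10 of the 32 solute carrier windows that an interval of their own gene overlapped by at least 1 bp (31.2%, exact Clopper-Pearson 95% interval 16.1 to 50.01), from 9 genes. The share was 7.15% over all 32851 windows of the table, 23.2% over the 2322 windows overlapped by any interval, and 10.6% over the 339 solute carrier windows with no interval. The interval of the solute carriers includes the share of all overlapped windows, and no difference from other bound promoters was detectable at this number of windows. With CACGTT on either strand counted as well, 14 of the 32 windows held a motif (43.75%, 26.4 to 62.3). That compares with 30.6% of the 2322 windows overlapped by any interval. Among the 22 member genes with an interval within 250 bp of the authors' transcription start site (TSS), 16 were in the promoter table, and 6 of these held CACGTG (37.5%, 15.2 to 64.6), against 8.09% of the table's 27025 genes. A match of letters is a description and not a measured binding site.

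The summits of the peaks were set beside the E-box. Over the 15 peaks in these windows the distance from the summit to the centre of the nearest CACGTG had a median of 34.5 bp (0.5 to 269.5), and 10 of 15 were within 100 bp. The windows were chosen for holding both an interval and a CACGTG, which favours short distances, and no baseline distance was taken. The Slc35a5 site gave 5 of the 15 peaks, from different libraries. At Slc35a5 the summit of male control ZT0 was 0.5 bp from an E-box centre. The misaligned male summits were 3.5 bp (ZT0) and 28.5 bp (ZT12) away, and the misaligned female ones 107.5 bp (ZT0) and 38.5 bp (ZT12). Its E-boxes begin 90 and 67 bases upstream of the start, 23 bases apart. At Slc20a1 the summit of male misaligned ZT12 was 9.5 bp from an E-box centre, while those of male control ZT0 and female misaligned ZT0 lay 255.5 and 269.5 bp away, upstream of the stretch searched. The windows of Slc30a1 and Slc41a1 also carried peaks, described below, and had no CACGTG. The Slc41a1 window held the variant CACGTT (either strand), which begins 4 bases downstream of its start.

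**Figure D1:**
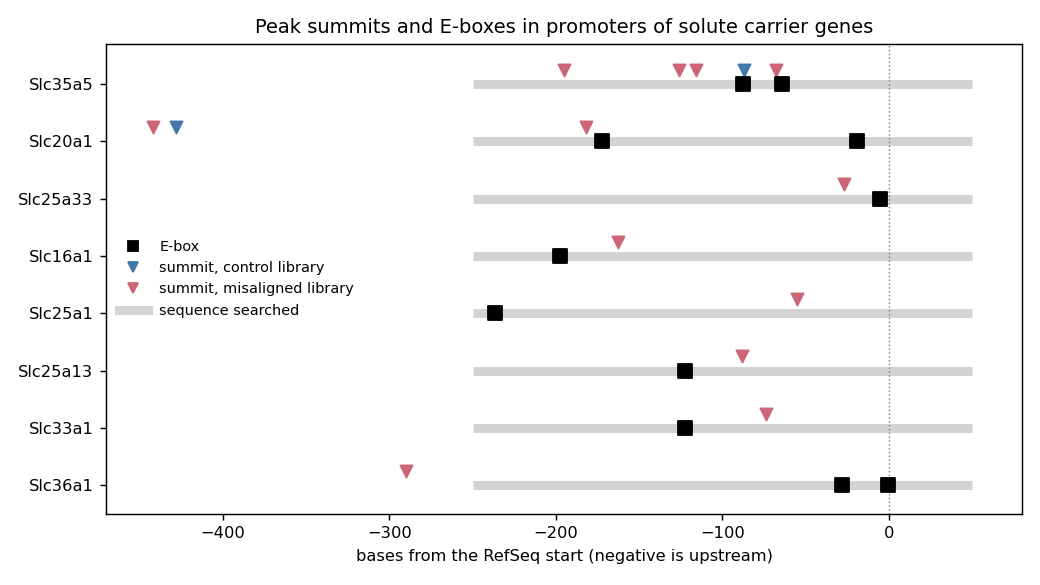
Position of peak summits (triangles, by treatment of the library) and of CACGTG (squares) in bases from the RefSeq start for 8 solute carrier genes; grey bars are the stretch searched, and Slc12a7, which has more than 1 start here, is left out. At Slc35a5 the 5 summits lie between 195 and 68 bases upstream of the start, around its 2 E-boxes.

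How many solute carrier intervals were called depended on the library. Male livers at ZT0 gave 9 under control and 32 under misalignment, and at ZT12 they gave 5 and 93. Female livers at ZT0 gave 2 under control and 23 under misalignment, and at ZT12 they gave 2 and 3. Male misaligned ZT12 thus held most of the calls, and 67 of the 119 intervals were called there alone, against 4106 of all 7043. Solute carriers were 1.63% of the intervals called there alone, near the 1.69% of the merged table. Without those 67, 52 intervals at 46 genes remain.

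These numbers followed the length of each list. Male misaligned ZT12 called 78.2% of the solute carrier intervals and 78.7% of all intervals. For the other male libraries the values for solute carriers and for all intervals were 7.56% and 5.21% (control ZT0), 26.9% and 26.4% (misaligned ZT0), and 4.20% and 4.06% (control ZT12). For the female ones they were 1.68% and 3.17% (control ZT0), 19.3% and 18.8% (misaligned ZT0), 1.68% and 1.96% (control ZT12), and 2.52% and 3.08% (misaligned ZT12). These shares lie near their backgrounds, and the largest gaps, in the control ZT0 libraries, rest on 9 and 2 intervals.

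Seen the other way, solute carriers took a like share of each list. They were 2.45% of the intervals called in male control ZT0 (exact 95% interval 1.13 to 4.60) and 0.897% in female control ZT0 (0.109 to 3.20), the extremes of the 8 libraries. In the other 6 libraries the share was between 1.38% and 1.75%, and every interval included the 1.69% of the merged table. These intervals cover counting error only, since intervals of 1 library are not replicates.

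**Figure D2:**
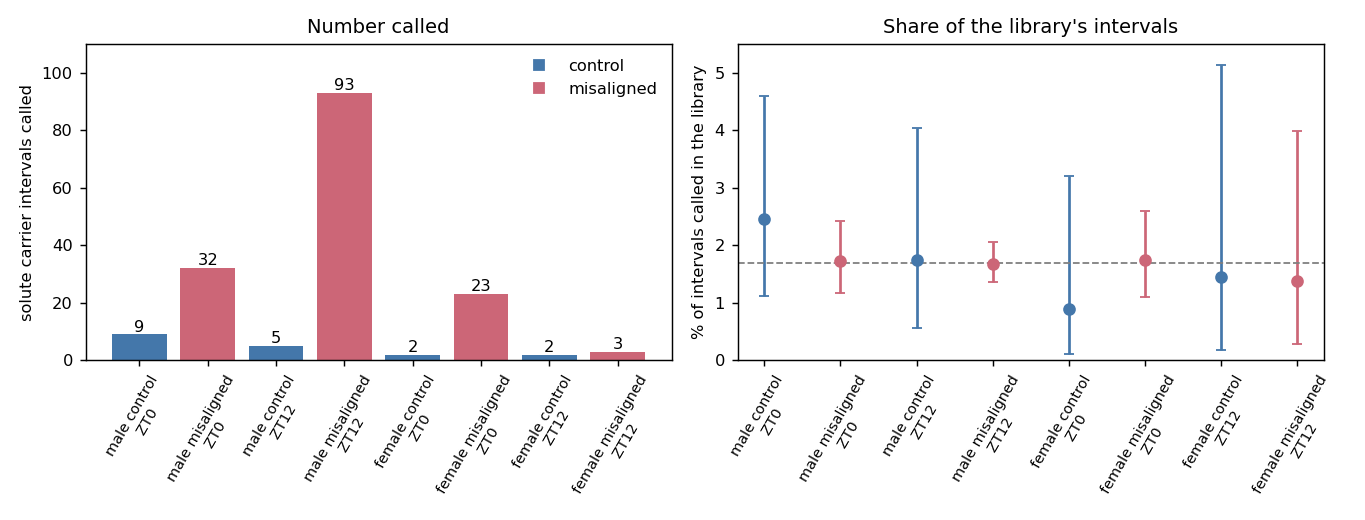
Left, number of solute carrier intervals called in each BMAL1 library (bars, 1 library per group). Right, their share of all intervals called in that library, in percent, with exact 95% intervals for counting error; the dashed line is the 1.69% of the merged table, which lies inside all 8 intervals.

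Whether misalignment, sex or time moved these counts was tested over the 4 pairs of libraries that differ in 1 factor alone. More solute carrier intervals were called in the misaligned library of 4 of 4 pairs, with log2 ratios (0.5 added to each count) of 1.77 and 4.09 in males at ZT0 and ZT12 and 3.23 and 0.49 in females. The mean log2 ratio was 2.40 (p = 0.13 by an exact permutation test that flips signs, two-sided; adjusted p = 0.188 over 3 factors). With every list shortened to the length of the shortest, 141 peaks, it was -0.37 and higher in 1 of 4 pairs. Fewer were called in the female library of 4 of 4 pairs (mean log2 ratio -2.07, exact sign-flip permutation p = 0.13, adjusted p = 0.188). That mean was -0.85 at equal list lengths, with 1 of 4 pairs the other way, and -1.18 without the pair that holds male misaligned ZT12. ZT12 exceeded ZT0 in 1 of 4 pairs (mean -0.50, exact permutation p = 0.75, adjusted p = 0.75), and the mean was 0.18 at equal list lengths and -1.18 without the pair that holds male misaligned ZT12. The smallest p that 4 pairs allow is 0.13 after rounding, so none of these tests could pass the usual threshold.

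The share of each list showed no difference that these pairs could resolve. It was 1.63% on average in misaligned and 1.64% in control libraries, a difference of -0.00665 percentage points and higher in 1 of 4 misaligned libraries (exact sign-flip permutation p = 1, adjusted p = 1). Between females and males the difference was -0.533 points, higher in females in 1 of 4 pairs (exact permutation p = 0.25, adjusted p = 0.75). Between ZT12 and ZT0 it was -0.137 points, higher at ZT12 in 1 of 4 pairs (exact permutation p = 0.625, adjusted p = 0.938).

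Few solute carrier sites recurred. Of the 119 intervals, 90 (75.6%) were called in 1 library alone, against 78.5% of all intervals. There were 11 called in 3 or more libraries (9.24%, against 9.34% of all), 5 in 4 or more (4.20%, against 4.81%) and 4 in 5 or more (3.36%, against 2.68%). None was called in 7 or 8 libraries, where 0.419% and 0.491% of the 6924 other intervals were.

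The most recurrent and strongest solute carrier site was at Slc2a5, the gene of the fructose transporter GLUT5. It lay in an intron of the gene (chr4:150132473-150133195), at -6719 bp from the authors' TSS (a minus sign means upstream) and 13490 bp downstream of the nearest RefSeq start, with no other coding gene within 10 kb. Here and below, the number of DNA fragments over the summit and the local background at that place were recovered from the caller's values. At Slc2a5 the male summits held 51 (control) and 64 (misaligned) fragments at ZT0, and 63 and 153 at ZT12. The female summits held 47 in misaligned ZT0 and 47 in control ZT12. The local background was 6.16 to 9.37 fragments in these 6 libraries. No peak was called in female control ZT0 or female misaligned ZT12, which means that none passed the caller's threshold there and not that binding was absent. The site was the strongest solute carrier peak of all 4 male lists, at ranks 59 of 373, 83 of 1864, 53 of 290 and 31 of 5542 by -log10 q. Its summits fell within 35 bp of each other over the 6 libraries.

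A zinc exporter followed. Slc30a1 codes for ZnT1, which moves zinc out of the cell, and its interval covered the promoter (chr1:191906176-191907249, -544 bp from the TSS). The male summits held 33 (control ZT0), 50 (misaligned ZT0) and 112 (misaligned ZT12) fragments and the female ones 45 (misaligned ZT0) and 54 (control ZT12), over a background of 6.31 to 11.6. The authors' -log10 q was 7.16, 23.0, 86.8, 16.6 and 14.2 in the same order. It was the strongest solute carrier peak of female control ZT12 (rank 55 of 141). The 5 summits lay within 35 bp. The other zinc transporter gene among the members, Slc30a4, had adjoining intervals 45 bp apart, 1 called under control (31 fragments) and 1 under misalignment (26) in males of ZT12.

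Among amino acid carriers, Slc7a2, the gene of a transporter of arginine and lysine in liver, had the most recurrent site (chr8:40861958-40862586, -306 bp from the TSS). The male summits held 40 (control) and 28 (misaligned) fragments at ZT0, and 34 and 60 at ZT12. The only female peak, of misaligned ZT0, held 37. It was called in both control and both misaligned male libraries, as Slc2a5 was and no other member, and its summits were spread over 258 bp.

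Mitochondrial carriers had 3 sites in 3 or more libraries. Slc25a39, which brings glutathione into mitochondria, had an interval annotated as promoter (chr11:102408246-102408960, -1787 bp from the TSS). It held 34 fragments in the male control library of ZT0, 52 and 85 in the male misaligned ones of ZT0 and ZT12, and 59 in the female misaligned one of ZT0. It was the strongest solute carrier peak of female misaligned ZT0, and its summits fell within 32 bp. Rundc3a is also within 10 kb of it. Slc25a51, the mitochondrial NAD carrier, was called at its promoter in the misaligned males of ZT0 (30 fragments) and ZT12 (51) and the misaligned females of ZT0 (38). Slc25a47 codes for a carrier largely restricted to hepatocytes. It was called 1765 bp into the gene in male misaligned ZT0 (39 fragments), male control ZT12 (30) and female misaligned ZT0 (44). It was not called in male misaligned ZT12, the longest list. Wars is also within 10 kb of this site.

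The nucleotide sugar transporter family gave a pair of such sites. At Slc35a5 the interval (chr16:45158542-45159187) lay over the starts of Slc35a5 and Atg3 and held 41 fragments in the control males of ZT0. In misaligned males it held 28 (ZT0) and 80 (ZT12), and in misaligned females 55 (ZT0) and 45 (ZT12). It was called in all 4 misaligned libraries and was the only solute carrier site with that pattern. At Slc35a4 the interval (chr18:36678970-36679669, 104 bp downstream of the TSS) held 46 (ZT0) and 79 (ZT12) fragments in misaligned males and 29 in misaligned females of ZT0, with Apbb3 and Sra1 also within 10 kb.

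The last recurrent sites were at carriers of magnesium, phosphate and carnitine. Slc41a1, which exchanges magnesium for sodium, had peaks in males alone, with 44 fragments under control at ZT0 and 61 and 85 under misalignment at ZT0 and ZT12. Its summits lay within 3 bp of each other, 16 to 19 bases downstream of a RefSeq start, although the authors' distance is -14908 bp to another transcript. Pm20d1 is also within 10 kb of the Slc41a1 site. Slc20a1, the phosphate transporter PiT1, had 43 fragments in control males of ZT0, 68 in misaligned males of ZT12 and 41 in misaligned females of ZT0. Slc22a16, a carnitine transporter, was the nearest gene to a site at -70496 bp with 32 and 57 fragments in misaligned males of ZT0 and ZT12 and 32 in misaligned females of ZT0. No coding gene is within 10 kb of that site.

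Over the 11 sites the summits of different libraries were a median of 59 bp apart at most (3 to 260), against 73 bp (2 to 1496) over 647 other intervals called in 3 or more libraries. For intervals in 2 libraries the order was the other way, with 87.5 bp over 18 solute carrier sites and 54 bp over 841 others. In the 10 of these sites that were called in male misaligned ZT12, that library had the highest number of fragments. Its list was also the longest, and the part of library quality in this was not tested. The lowest local background in its list was 4.25 fragments, and it was 4.32 to 6.16 in the other lists.

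**Figure D3:**
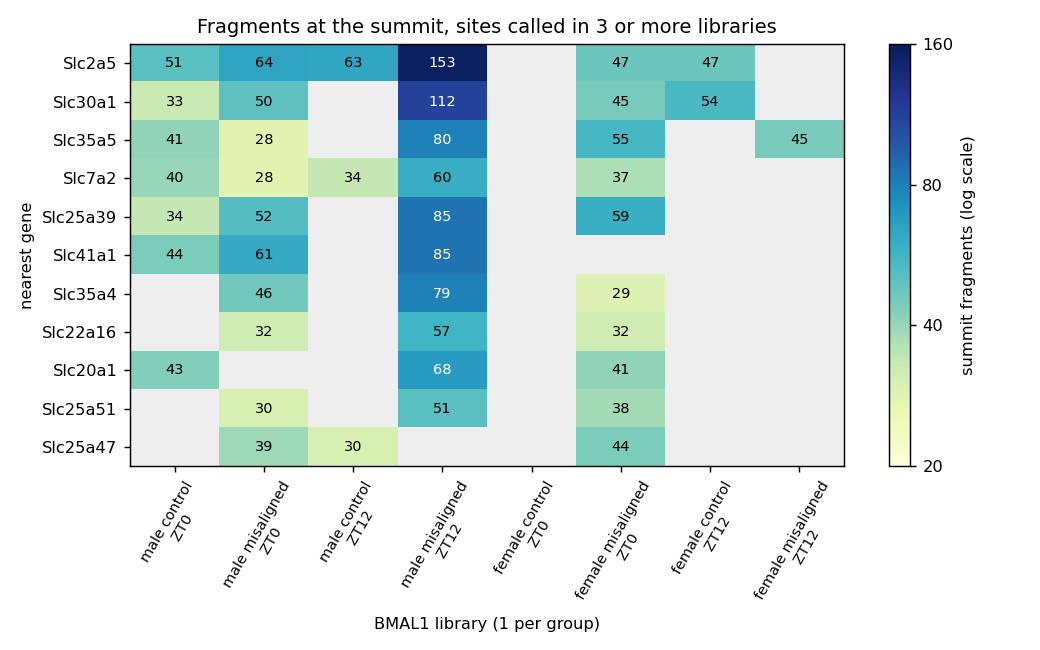
DNA fragments at the summit (numbers and colour, log scale) for the 11 solute carrier sites called in 3 or more of the 8 BMAL1 libraries; grey means no peak was called. The male misaligned ZT12 column is highest at all sites but Slc25a47, where it is not called, and the female control ZT0 column is empty.

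The intervals were sorted by what the carrier family transports. Amino acid and amine carriers had 31 intervals at 18 of 65 RefSeq coding genes, and mitochondrial carriers of the SLC25 family and its relatives had 25 intervals at 18 genes, the pseudogene among them, in a class of 47 RefSeq coding genes. Carriers of organic anions, organic cations and drugs had 12 intervals at 10 of 41 genes, nucleotide sugar and acetyl-CoA carriers 8 at 8 of 28, sugar carriers 8 at 6 of 33, and phosphate and related carriers 7 at 7 of 14. Bile acid carriers had 1 interval (Slc10a4) for 9 genes, and the 6 fatty acid carrier genes had none. Over all classes, 88 of 387 RefSeq coding genes that fit the name rule were the nearest gene of an interval (22.7%), against 3423 of 21896 coding genes in all (15.6%).

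The counts within 1 kb of the TSS, to be read against 28.6% of other intervals, varied among the classes. Of the 8 intervals of nucleotide sugar and acetyl-CoA carriers, 7 were within 1 kb of the TSS, and of the 25 of mitochondrial carriers 10 were. Of the 31 of amino acid carriers 8 were, and of the 8 of sugar carriers 1 was. The differences between classes were not tested.

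**Figure D4:**
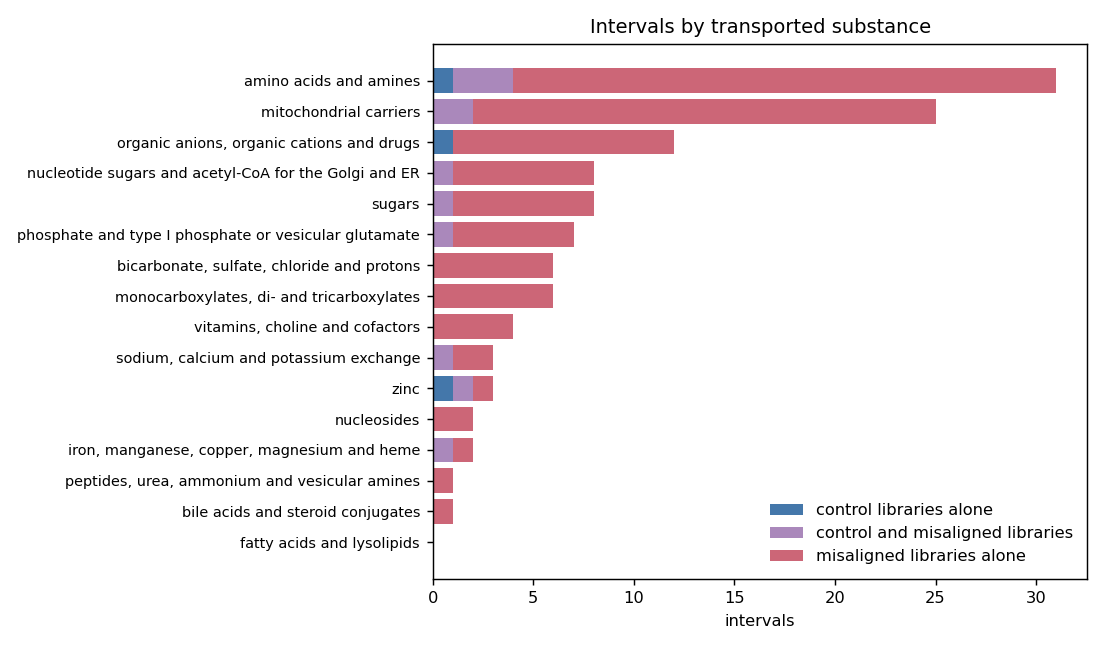
Number of solute carrier intervals in each class of transported substance, split by whether they were called in control libraries alone, in control and misaligned libraries, or in misaligned libraries alone. Amino acid carriers (31) and mitochondrial carriers (25) hold the most intervals, and intervals of misaligned libraries alone are the larger part of every class with an interval except the zinc class and the iron, copper and magnesium class.

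Of the 119 intervals, 105 were called in misaligned libraries alone (88.2%, against 90.0% of all intervals), 11 in control and misaligned libraries (9.24%, against 7.34%) and 3 in control libraries alone (2.52%, against 2.68%). The 3 were at Slc38a4 (-69562 bp from the TSS, male control ZT12, 26 fragments), at Slc30a4 (male control ZT12) and nearest to Slco1c1. Slco1c1 is a thyroid hormone transporter gene best known from the brain barrier. Its site (-24412 bp from the TSS, female control ZT0, 22 fragments) was annotated as exon but lay outside Slco1c1. Pde3a was the only coding gene within 10 kb of it. By sex, 92 were called in male libraries alone (77.3%, against 78.0% of other intervals), 6 in female libraries alone (5.04%, against 7.89%) and 21 in both sexes (17.6%, against 14.1%).

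Among male livers of ZT0, misalignment alone gave 26 of the 119 intervals, against 1593 of all 7043 (22.6%). Control alone gave 3, against 100 of all (1.42%), and 6 had a call under each protocol, against 267 of all. The strongest gained ones were at Slc35a4, Slc22a16 and Slc25a51. Those with the control call alone were at Slc20a1, at Slc6a6, the taurine transporter gene (34 fragments, -164 bp), and at Slc8b1, a mitochondrial exchanger of sodium and calcium (28 fragments). All 3 of the latter were called again in male misaligned ZT12, with 68, 45 and 26 fragments.

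Among male livers of ZT12, misalignment alone gave 91 of the 119 intervals, against 5317 of all 7043 (75.5%). Control alone gave 3, at Slc25a47, Slc30a4 and Slc38a4, against 63 of all (0.895%). The 2 with a call under each protocol, against 223 of all, were Slc2a5 and Slc7a2. Of the 91, Slc30a1, Slc25a39 and Slc35a5 were strongest. Sites called in no other library included one at -24570 bp from the authors' TSS of Slc17a8 (55 fragments), -3136 bp from its nearest RefSeq start. The Slc17a8 product loads glutamate into vesicles of neurons. Another such site lay at -5708 bp from Slc13a2, a carrier of dicarboxylates (50 fragments). A site at -11202 bp from the authors' TSS of Slc17a9, a vesicular carrier of ATP, held 78 fragments. The Slc17a9 interval overlaps that gene in RefSeq, is annotated as a promoter and has Gid8 within 10 kb.

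Among female livers of ZT0, misalignment alone gave 23 of the 119 intervals, against 1237 of all 7043 (17.6%). Control alone gave 2, against 137 of all (1.95%), and 0 had a call under each protocol, against 86 of all. The strongest of the 23 were at Slc25a39, Slc38a4 and Slc35a5. The 2 were Slco1c1 and the promoter of Slc38a9, a lysosomal arginine sensor (28 fragments, rank 52 of 225), which was also called in male misaligned ZT12 (50 fragments). Among female livers of ZT12, misalignment alone gave 3 of the 119 intervals, against 147 of all 7043 (2.09%). Control alone gave 2, against 68 of all (0.965%), and 0 had a call under each protocol, against 70 of all. The 3 were at Slc7a10, a neutral amino acid carrier (42 fragments, -31509 bp), Slc35a5 and Slc13a2 (34 fragments), and the 2 were Slc30a1 and Slc2a5. Only at Slc30a4 did a peak of the paired library lie within 1 kb of a solute carrier site called in 1 library of a pair.

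The distance of solute carrier intervals from the TSS was set beside that of all others. Of the 119, 41 were within 1 kb (34.5%, exact 95% interval 26.0 to 43.7), against 1977 of 6924 other intervals (28.6%). Within 10 kb there were 72 (60.5%, against 57.3%) and within 50 kb 114 (95.8%, against 88.7%). The median distance was 5375 bp, against 6989.5 bp. By the authors' annotation 39 were in promoters (32.8%, against 33.6% of others), 46 in introns (38.7%, against 33.4%), 22 intergenic (18.5%, against 24.4%), 10 in exons (8.40%, against 4.82%) and 2 at transcript ends (1.68%, against 3.73%). Of the 11 sites in 3 or more libraries 6 were within 1 kb (54.5%), of the 18 in 2 libraries 5 were (27.8%), and of the 90 in 1 library 30 were (33.3%). Among other intervals these values were 44.7%, 39.2% and 25.0%, so the solute carriers were not the nearer ones among sites in 2 libraries. The counting interval of the 34.5% includes the value of the other intervals. By RefSeq position, 83 of the 119 overlapped their own gene and 38 had another coding gene within 10 kb. These 2 counts were not taken for other intervals.

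**Figure D5:**
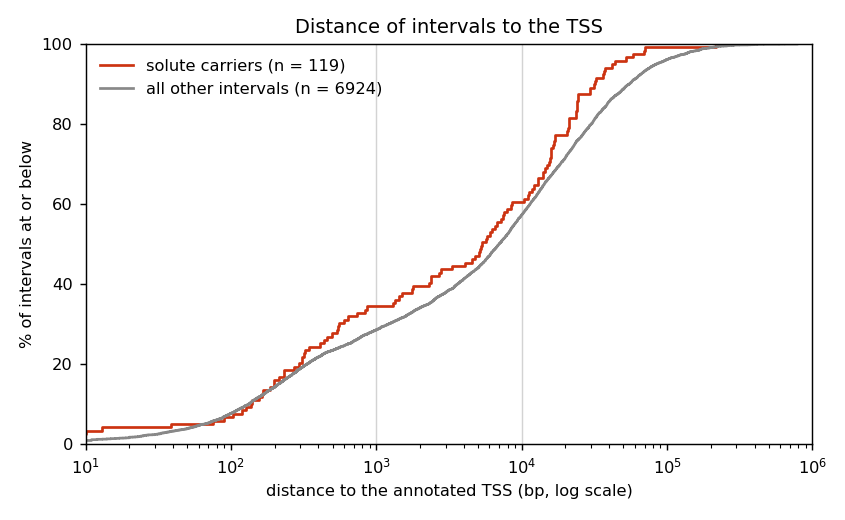
Cumulative percentage of intervals by distance to the annotated TSS (bp, log scale) for the 119 solute carrier intervals and the 6924 others. At 1 kb the curves stand at 34.5% and 28.6%, and at 10 kb at 60.5% and 57.3%.

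Carriers of hepatocytes were compared with carriers known from brain, kidney and gut. Of 41 hepatocyte carriers listed from general knowledge, 18 were the nearest gene of an interval (43.9%, against the 22.7% of solute carrier genes and 15.6% of coding genes given above), 15 of them within 10 kb of the TSS. Of 30 carriers of brain, kidney and gut epithelium, 3 were the nearest gene, of which Slc34a1 was within 10 kb of the authors' TSS. By the nearest RefSeq start, the Slc17a8 site of this list was also within 10 kb (-3136 bp). The farther hepatocyte carriers Slc43a1, Slc46a3 and Slco1a1 were not (10884, -17006 and -13846 bp). Nor was Slco2b1, which is 138 bp from the authors' TSS but 31016 bp from its nearest RefSeq start. The number of hepatocyte carriers with an interval within 10 kb was 2 (control) and 5 (misaligned) in males of ZT0, and 2 and 12 in males of ZT12. For females of ZT0 it was 0 and 7, and for females of ZT12 1 and 0. As a background of genes, the share of all RefSeq coding genes with an interval in the gene or within 10 kb was taken. In the same order it was 2.19% and 9.16%, 1.37% and 21.9%, 1.25% and 7.40%, and 0.735% and 1.35%. That share goes by position and not by nearest gene, so it is not the same measure. The peak lists behind the counts of hepatocyte carriers ran from 141 to 5542 peaks, and the counts were not tested apart from list length. The gene lists were made by hand with earlier results known, and members such as Slco1c1, Slc7a10 and Slc13a2, also known from brain or kidney, are on neither. The gap between the gene lists depends on that choice and was not tested.

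The hepatocyte carriers with a site within 10 kb of the authors' TSS spanned several routes of amino acid and energy metabolism. Besides Slc7a2 and Slc30a1 they included the glutamine transporter gene Slc38a3, with its site at -5079 bp, with 47 fragments in male misaligned ZT12 and 28 in female misaligned ZT0. Slc25a22, a mitochondrial glutamate carrier, had 43 and 33 in the same libraries. Slco2b1, an organic anion transporter, had 32 in male misaligned ZT0 and 31 in male misaligned ZT12. Sites in 1 library alone were at Slc16a1 (40 and 27 fragments at separate sites), Slc25a1 (43), Slc25a13 (31 and 26 at separate sites), Slc25a15, the ornithine carrier of the urea cycle (25), Slc22a23 (39) and Slc6a13 (22 to 31 at 3 sites), all in male misaligned ZT12. Slc38a2, the gene of an amino acid transporter induced by amino acid shortage, had a site in female misaligned ZT0 alone (27 fragments). The bile acid uptake gene Slc10a1 and the iron exporter gene Slc40a1 were the nearest gene of none.

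The sodium-coupled amino acid transporter gene Slc38a4, abundant in liver, had more intervals than any other solute carrier. There were 8 over 85781 bp (chr15:97004230-97090010), and 2 of the 5527 genes named in the merged table had more. Of the 8, 4 were called in male misaligned ZT12 alone, 2 in male misaligned ZT12 and female misaligned ZT0, 1 in female misaligned ZT0 and 1 in male control ZT12. The strongest had 46 fragments in both male misaligned ZT12 and female misaligned ZT0, with -log10 q of 18.4 and 22.7. Its summits lay 145 and 92 bases upstream of a RefSeq start of the gene, while the authors' distance to another transcript is -11062 bp. Next were Slc6a6, Slc6a13 and Slc25a48 with 3 intervals each, and 21 of the 89 genes (23.6%) had 2 or more, against 19.5% of all genes named in the table.

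ABC transporters, which pump substrates with ATP, served as another family of membrane transporters. They had 17 intervals at 13 genes, of which 3 were within 1 kb of the TSS (17.6%, exact 95% interval 3.80 to 43.4) and 12 were called in 1 library alone (70.6%, 44.0 to 89.7). Both intervals include the values of the solute carriers (34.5% and 75.6%).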

How the data were processed

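Liver chromatin was immunoprecipitated with a BMAL1 antibody or IgG, per the labels' protocols. Per the submitters' processing notes, the tools were BWA 0.7.17-r1188 and MACS2 2.2.7.1 and the build was GRCm38. Thresholds and the use of IgG as control are not given in the sources used here. Each deposited peak list describes a peak by its fold enrichment, a ratio to local background. The authors' lists also hold -log10 of its p and q. In the authors' merged table each interval has a call for every library and its nearest gene. All 9986 peaks lay in its 7043 intervals, and 0 calls differed from the lists.

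Fragment numbers were computed from the fold and the -log10 p of each deposited peak (relative tolerance 0.0001), which worked for all 169 member peaks and 99.1% to 100% of a list, and for 100% of 1000 simulated peaks. Read depth is unknown. Tests were exact permutation tests over 4 matched pairs, with Benjamini-Hochberg adjustment over 3 factors. Motifs were searched as letters in RefSeq promoter windows. Python 3.11.15, numpy 2.4.6, pandas 2.3.3, scipy 1.17.1 and matplotlib 3.10.9 were used. Coordinates count from 1.

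Named were members called in 4 or more libraries, the 10 strongest, the strongest of each library, the 3 strongest on each side of each treatment pair, genes with 3 or more intervals, hepatocyte carriers within 10 kb, and sites within 1 kb in 3 or more libraries. One gene that this rule names is not reported here. Members, lists and rules were chosen with earlier results of these data known. Alternatives were a floor of 3 on -log10 q, the assembled chromosomes alone, no intervals of high local background, distances of 10 kb and 5 kb, genes in place of intervals, lists of equal length, no male misaligned ZT12 library, and CACGTT beside CACGTG. RefSeq position, overlapped windows and leaving out Slc9a3r1 and Slc25a5-ps were added after seeing the data.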

Additional observations from a re-analysis of the deposited data

Results flagged for a closer look

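At 6 solute carrier sites a call was gained with misalignment in 1 pair of libraries and lost in another pair that differs from it in sex alone or time alone. Slc38a9, gained in males at ZT12 and lost in females at ZT0, differs in both and is not counted. Each rests on 1 library per group, the difference was not tested, and a lost call says only that the peak did not pass the caller's threshold. The same count was not taken over all intervals, so no excess at solute carriers can be read from it. The value given is the site's highest -log10 q in any library.

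The Slc2a5 site (125) gained a call in females at ZT0 and lost it in females at ZT12. The Slc30a1 promoter (86.8) gained one in males at ZT12 and in females at ZT0 and lost it in females at ZT12, where the control library held 54 fragments at the summit. The Slc20a1 promoter (24.4) lost its call in males at ZT0 and gained one in males at ZT12 and in females at ZT0. The Slc6a6 promoter (15.6) and the Slc8b1 intron (4.83) lost a call in males at ZT0 and gained one at ZT12. The Slc25a47 intron (8.39) gained a call in males at ZT0 and lost it in males at ZT12.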

How the results depend on the processing

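Of 66 values recomputed under alternatives, 59 were labelled the same, 3 reversed and 4 moved. Same means that a difference kept its direction, a share stayed within its error, or a count stayed within a set fold. Some values could not change, since 0 of the 119 member intervals had high local background and all 119 were on the assembled chromosomes. With every list shortened to its 141 strongest peaks, the mean log2 ratio of solute carrier intervals was -0.37 for misaligned against control and 0.18 for ZT12 against ZT0. Without the pair that holds male misaligned ZT12, the difference in share between misaligned and control was 0.0143 percentage points. Without the intervals called in male misaligned ZT12 alone there were 52 intervals and 46 genes, and 44.2% of the intervals were called in 1 library alone. Within 5 kb of the TSS lay 47.1% of intervals. By RefSeq position, an alternative chosen after seeing the data, 127 of 387 solute carrier genes (32.8%) had an interval in the gene or within 10 kb, against 26.4% of all coding genes. No paired analysis was possible because each group has 1 library, so no replicate numbers pair samples across groups. The 4 pairs of each test match libraries by sex, treatment and time, not by animal. Depth is unknown, and 1 library holds most of the calls.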
